A study of Mus musculus with 16 samples.

Results

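The genes described here belong to the families that carry the interferon response: the interferon regulatory factors (Irf genes), the Stat transcription factors, and the interferon-inducible Ifi, Ifit, Ifitm, Isg, Gbp and Oas genes. They were taken by symbol, and 58 of the 19799 genes with a symbol qualified. Of these, 49 passed the low-count filter and were tested, among 16245 tested genes in all. The 9 others (Gbp5, Ifi27l2a, Ifi44l, Ifitm5, Ifitm7, Oas1b, Oas1c, Oas1d and Oas1e) had at most 4 to 10 reads in any library. A symbol is not a function: Stat3, Stat5a and Stat5b serve many cytokines, and Isg20l2 is a nucleolar exonuclease.

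Interferons bind receptors at the cell surface, whose Jak kinases phosphorylate Stat proteins. A Stat complex with Irf9 then binds interferon-stimulated response elements (ISRE), and Stat pairs bind gamma-activated sites (GAS). Irf3 and Irf7 act upstream, where sensing of foreign nucleic acid switches on interferon genes, and Irf1 acts downstream of interferon gamma. The effector families bind viral RNA, modify proteins, block viral entry or make the messenger that activates RNase L.

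RNA was sequenced from pmi28, a mouse myoblast line whose cells fuse into myotubes. One transgenic line carried inducible msx2 and GFP and the other inducible GFP alone. Each line gave 2 libraries of uninduced myoblasts in medium with 20% fetal bovine serum, 3 of uninduced isolated myotubes and 3 of induced isolated myotubes. Myotubes had formed in 10% horse serum for 3 days, were caught on a mesh, and spent 3 days with AraC, a drug that kills dividing cells. Induced myotubes then received doxycycline at 2 µg/ml in growth medium with 20% fetal bovine serum for 24 h. The labels do not give the medium of the uninduced myotubes over that time, so the medium may have changed together with doxycycline and GFP, and induction of the GFP line serves as the control for all of these. Each construct is represented by a single line, so construct and line cannot be told apart. Whether replicates came from separate cultures is not stated, and the p-values reflect only how much these libraries varied, which may be technical.

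Total counts lay between 19784873 and 33092666 per library. Levels are given as CPM, a gene's counts scaled to the size of its library after TMM adjustment. Msx2 lay between 12.1 and 15.9 CPM in msx2-line myotubes before induction and between 1344 and 1514 after it. All GFP-line myotubes had 0.803 to 1.26 CPM, so the msx2 line was above the GFP line without induction as well. Msx2-line myoblasts had 16.8 and 16.4 CPM and GFP-line myoblasts 1.59 and 1.28 CPM. Myotube markers summed to 26225 to 30025 CPM in the msx2 line before induction and 13962 to 17185 CPM after it, against 29077 to 32994 CPM in all GFP-line myotubes. The 10 markers did not move alike: with msx2 induction 5 were called lower and 1 higher, beside 16.3% and 16.2% of all tested genes. Their median log2 fold change was -0.26. The msx2-line myotube libraries numbered 2 stood apart in summed fibroblast markers, with 1231 CPM uninduced and 1248 CPM induced against 386 to 817 CPM in the other 4, so the inductions were repeated without them. That left 14 genes higher and 5 lower in the msx2 induction, where Gbp11 and Stat2 were lost and Ifitm10 and Ifitm2 were added, and 13 of the 14 genes in the difference of inductions. In bulk RNA, fewer cells of a type and less RNA per cell cannot be told apart.

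Promoters of 4 genes are shown as examples. Their genes changed with msx2 induction and the stretch before their start holds letters of the ISRE core or the GAS. Ifit2, Ifitm6, Stat2 and Stat4 meet these terms too and are not printed. Each is the 250 bases before the start annotated by RefSeq on GRCm38.p6, a later build than the mm9 named for the deposited counts, written along the gene's strand. Capitals mark matches to the ISRE core, which is GAAA, any 2 bases and GAAA again (searched on both strands), or to the GAS TTCNNNGAA, whose letters read alike on both strands. Irf8 lies at chr8:120736108-120736357 (plus strand), Irf1 at chr11:53769764-53770013 (plus), Isg15 at chr4:156200819-156201068 (minus) and Ifi202b at chr1:173982845-173983094 (minus).
Irf8: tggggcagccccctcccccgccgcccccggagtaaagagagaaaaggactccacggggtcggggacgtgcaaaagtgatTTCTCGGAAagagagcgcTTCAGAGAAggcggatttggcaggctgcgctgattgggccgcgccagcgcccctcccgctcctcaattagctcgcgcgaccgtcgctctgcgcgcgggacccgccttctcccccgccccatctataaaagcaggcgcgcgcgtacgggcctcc
Irf1: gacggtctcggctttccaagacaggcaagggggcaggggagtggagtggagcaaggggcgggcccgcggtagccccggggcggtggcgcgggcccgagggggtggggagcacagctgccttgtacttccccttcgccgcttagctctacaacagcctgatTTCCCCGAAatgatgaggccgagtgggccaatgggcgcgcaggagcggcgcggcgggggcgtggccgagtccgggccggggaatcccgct
Isg15: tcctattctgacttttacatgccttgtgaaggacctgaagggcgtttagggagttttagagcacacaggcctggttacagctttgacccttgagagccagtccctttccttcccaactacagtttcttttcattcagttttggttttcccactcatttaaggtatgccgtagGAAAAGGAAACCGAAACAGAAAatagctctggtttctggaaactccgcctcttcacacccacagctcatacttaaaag
Ifi202b: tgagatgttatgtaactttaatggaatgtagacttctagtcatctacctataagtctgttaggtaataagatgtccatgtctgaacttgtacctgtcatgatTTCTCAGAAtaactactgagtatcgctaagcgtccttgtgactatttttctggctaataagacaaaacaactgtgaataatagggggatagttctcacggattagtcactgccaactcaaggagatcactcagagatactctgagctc

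Irf8 holds 2 GAS matches, at 171 and 153 bases before the start, and Irf1 holds 1, at 90 bases. Isg15 holds 3 overlapping ISRE cores, starting 78, 72 and 66 bases before its start. Ifi202b holds 1 GAS match at 148 bases. Of the 58 genes, 45 had 57 promoter windows in the RefSeq table, each running from 250 bases before a start to 50 after it. Irf8 and Irf1 had 2 windows each, and the window not printed held no match for either gene. The ISRE core was present in 29.8% of these windows and in 3.44% of all 32851 windows, and the GAS in 19.3% and 8.30%. These are matches of letters in a window and not measured binding sites.

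Induction of the msx2 line was followed by changes in both directions. Irf8, Irf4, Irf5 and Irf1, with Ifi30, Ifitm3, Ifitm6, Stat6 and Isg15, rose, while Ifit2, Ifi202b, Ifi204, Gbp11 and Stat5b fell. Of the 49 tested genes 12 rose and 7 fell (38.8%), where 32.5% of all tested genes changed, 16.2% up and 16.3% down. Rises of at least 2-fold were called for 6 genes and falls of that size for 3, beside 4.6% and 2.71% of all tested genes. The median log2 fold change was 0.00 for these genes and -0.01 for all tested genes. The same 12 and 7 genes were called under both other scalings tried.

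The Irf family had 6 of 9 genes higher and none lower. Irf8, a transcription factor of myeloid and lymphoid lineages, was at 0.0499, 0.178 and 0.0623 CPM before induction and at 1.99, 1.42 and 1.25 CPM after it. These are low levels, 8 reads in all against 118, and the groups did not overlap. The rise was 3.88 ± 0.39 log2 units (SE, adjusted p = 1.36e-06, edgeR quasi-likelihood test). Irf4, its close relative in lymphoid cells, moved from 0.299, 0.320 and 0.436 CPM to 1.65, 1.26 and 1.60 CPM. It rose 2.05 ± 0.27 log2 units (adjusted p = 3.37e-05), from 29 reads to 116.

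Irf5, a factor of inflammatory cytokine genes, was at 0.998, 1.74 and 1.40 CPM before and 4.39, 3.35 and 4.55 CPM after induction, a rise of 1.54 ± 0.24 log2 units (adjusted p = 0.000135). Irf1, the factor of the interferon gamma response, went from 4.99, 9.35 and 8.03 CPM to 13.8, 15.8 and 16.7 CPM, up by 1.03 ± 0.17 log2 units (adjusted p = 0.000231). For both genes every induced library lay above every uninduced one. Irf7, which drives type I interferon genes, was at 1.05, 1.56 and 1.21 CPM and then at 1.69, 2.21 and 2.28 CPM, up by 0.68 ± 0.21 (adjusted p = 0.0193). Irf3, its constitutive partner, was at 28.4, 24.8 and 26.1 CPM and then at 37.4, 30.4 and 32.3 CPM, up by 0.34 ± 0.08 (adjusted p = 0.00432). The rises of these 2 genes were the smallest of the family. The Irf7 call was lost without uninduced replicate 1 or 3 or induced replicate 2 or 3 (adjusted p 0.0526 to 0.0740) and with DESeq2 (0.0551). The Irf3 call was lost with a GC offset and replicate block together (0.0642). Irf2, an antagonist of Irf1, stood at -0.14 ± 0.10 log2 units and Irf9 at -0.10 ± 0.15, and neither passed the threshold.

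**Figure D1:**
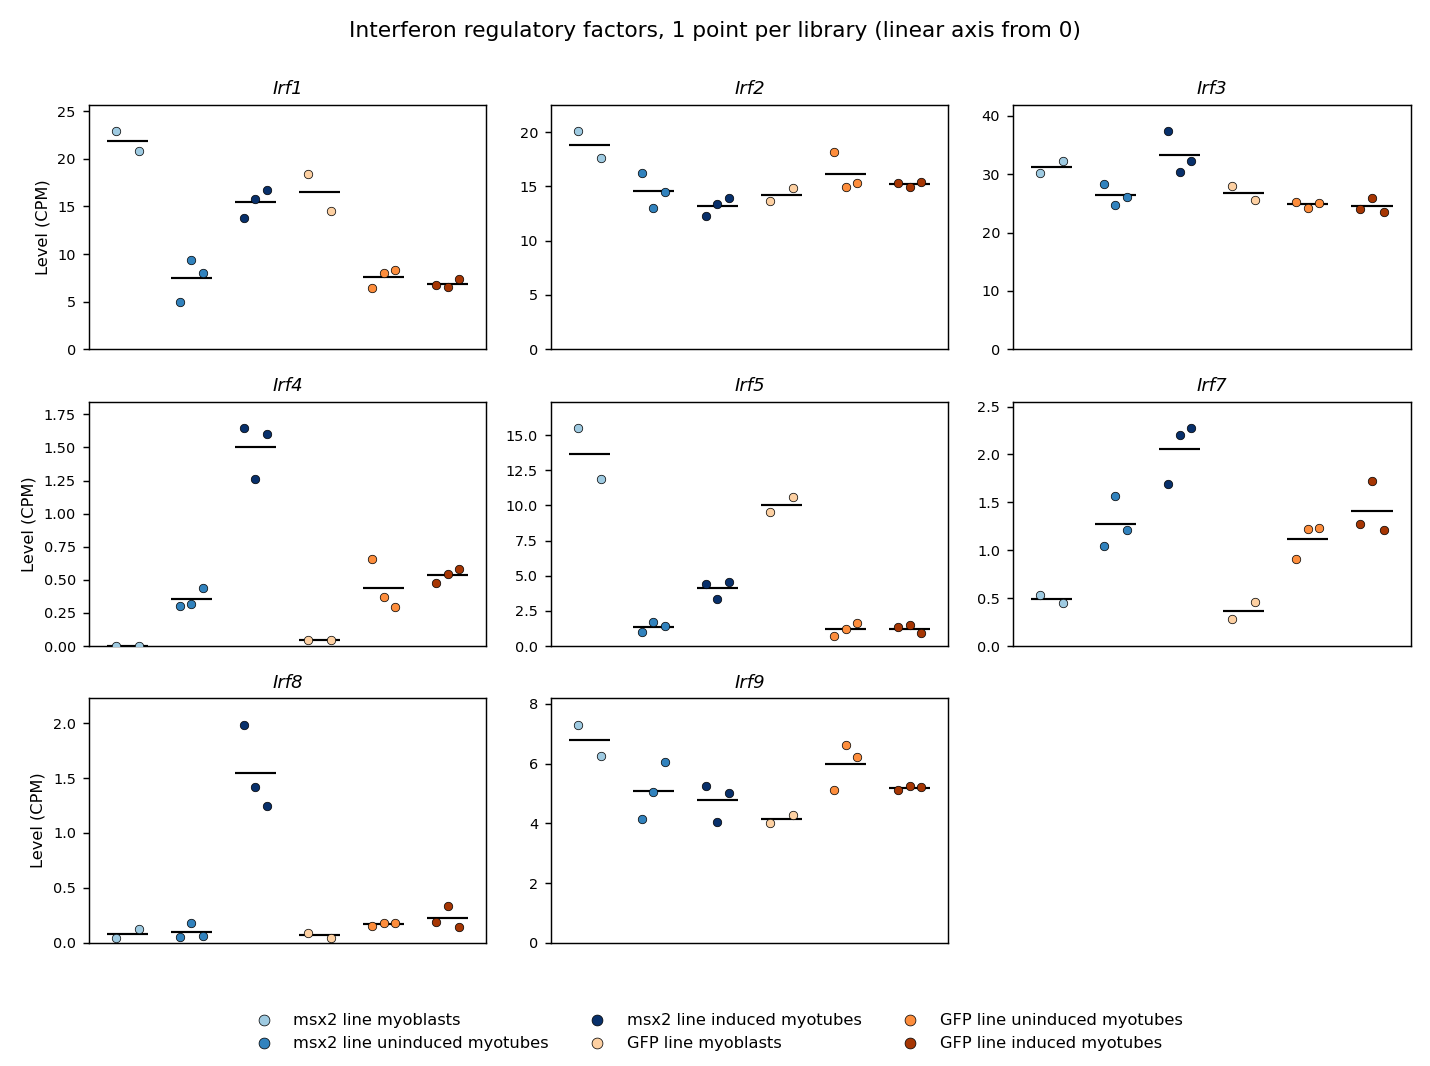
Levels of 8 interferon regulatory factors in CPM (linear axes from 0), with 1 point per library and a line at each group's mean (2 libraries per myoblast group, 3 per myotube group). Irf8 and Irf4 are low throughout and highest in induced msx2-line myotubes. Irf5 is highest in myoblasts of both lines. Irf1 is highest in msx2-line myoblasts, and its GFP-line myoblast points overlap those of induced msx2-line myotubes.

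Of the Stat genes 1 of 7 rose and 3 fell. Stat6, the factor of interleukin 4 and 13 signals, was at 21.2, 25.5 and 21.9 CPM before induction and at 36.9, 39.1 and 35.6 CPM after it (0.70 ± 0.09 log2 units, adjusted p = 3.19e-05). Stat5b, a growth hormone and cytokine factor, was at 77.7, 54.7 and 65.4 CPM and then at 45.3, 40.6 and 48.0 CPM (-0.56 ± 0.14, adjusted p = 0.00731). Stat4, the interleukin 12 factor, was at 131, 145 and 141 CPM and then at 103, 113 and 118 CPM (-0.32 ± 0.06, adjusted p = 0.000757). None of these 3 pairs of groups overlapped. Stat2, the partner of Irf9, was at 11.6, 12.6 and 12.9 CPM and then at 7.90, 8.78 and 11.0 CPM (-0.42 ± 0.11, adjusted p = 0.00960). Its call was lost without induced replicate 1 (0.0567), without both libraries numbered 2 (0.0628) and in a fit of the compared groups alone (0.0532). Stat3 (0.06 ± 0.07) and Stat5a (0.00 ± 0.12) did not pass the threshold.

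Among the effectors, Ifi30, a lysosomal thiol reductase of antigen processing, had the smallest p. It was at 13.1, 16.4 and 17.1 CPM before induction and at 43.2, 48.3 and 46.5 CPM after it, with no overlap. The rise was 1.56 ± 0.10 log2 units (adjusted p = 2.7e-08). The Ifitm genes, which encode membrane proteins that restrict viral entry, had 3 of 5 tested members higher. Ifitm3 went from 114, 158 and 105 CPM to 224, 208 and 228 CPM (0.81 ± 0.13, adjusted p = 0.000320). Ifitm6 went from 2.35, 1.42 and 1.43 CPM to 3.72, 3.11 and 3.66 CPM (1.05 ± 0.22, adjusted p = 0.00144). Both pairs of groups were fully separated. Ifitm1 rose by 0.61 ± 0.19 (adjusted p = 0.0212), a call lost without uninduced replicate 1 or 3 or induced replicate 3 (0.0763 to 0.0837). Isg15, a ubiquitin-like modifier, was at 1.45, 1.56 and 1.31 CPM and then at 2.41, 3.03 and 2.56 CPM (0.89 ± 0.24, adjusted p = 0.00804).

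The effectors that fell were Ifit2, Ifi202b, Ifi204 and Gbp11. Ifit2, which binds viral RNA, was at 20.1, 18.3 and 18.5 CPM before induction and at 7.90, 11.1 and 9.14 CPM after it (-1.01 ± 0.11 log2 units, adjusted p = 4.7e-06). Ifi202b, of the DNA-binding p200 family, went from 46.8, 39.5 and 46.9 CPM to 22.3, 22.3 and 21.9 CPM (-1.0 ± 0.13, adjusted p = 3.03e-05). Its neighbour in the family, Ifi204, went from 35.3, 38.1 and 36.2 CPM to 17.4, 21.4 and 17.4 CPM (-0.97 ± 0.10, adjusted p = 2.39e-06). No induced library of these 3 genes reached an uninduced one. Gbp11, a GTPase at low level, went from 0.749, 1.07 and 0.654 CPM to 0.211, 0.394 and 0.391 CPM (-1.28 ± 0.43, adjusted p = 0.0303). That call was lost without uninduced replicate 2 (0.116), without induced replicate 1 or 3 (0.110 and 0.0554) and without both libraries numbered 2 (0.127). None of the 8 tested Oas genes passed the threshold, with log2 fold changes from -0.39 (Oas1a) to 0.22 (Oas3). Ifit3 (-0.77 ± 0.37) and Ifi205 (-0.68 ± 0.34) did not pass it, and neither did Gbp9 (-0.47 ± 0.19, adjusted p = 0.0689) or Ifitm10 (0.33 ± 0.13, adjusted p = 0.0744). With the replicate number as a block, Gbp9 (0.0474) and Ifitm10 (0.0349) passed. Genes of the p200, Oas, Gbp and Ifitm families have near-identical copies, and how reads shared between copies were counted is not given in the sources used here, so values of single members are uncertain.

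**Figure D2:**
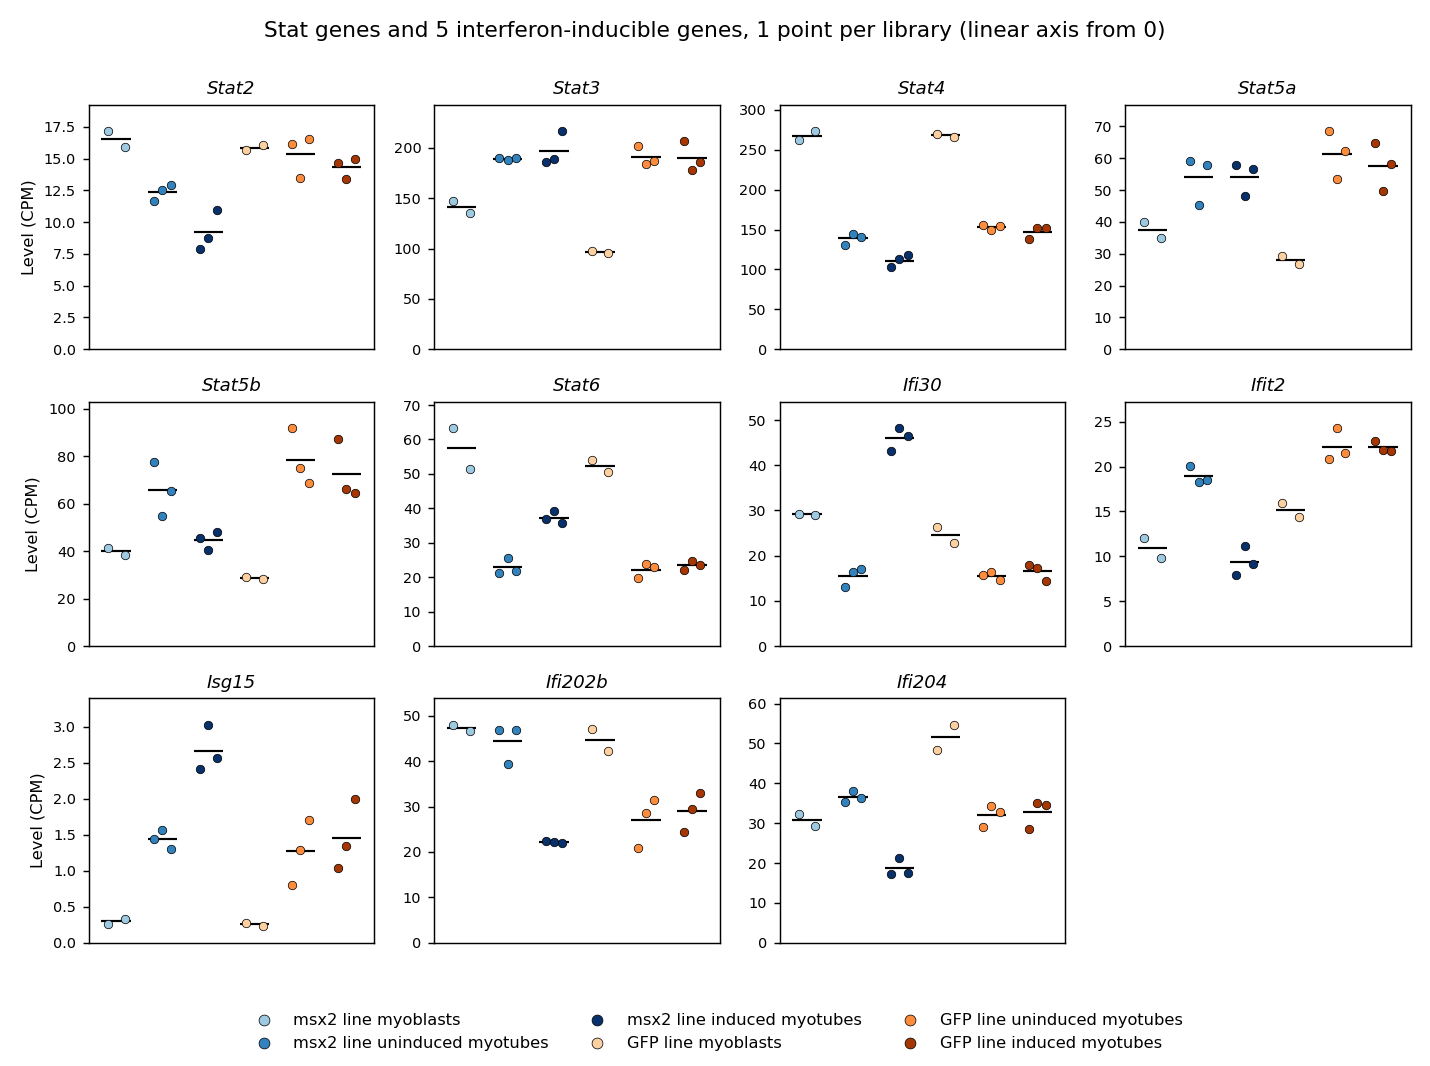
Levels of 6 Stat genes and 5 interferon-inducible genes in CPM (linear axes from 0), with 1 point per library and a line at each group's mean. Ifi30 rises and Ifit2, Ifi202b and Ifi204 fall in induced msx2-line myotubes alone of the 2 inductions.

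Motif matches were counted by these calls. Of the 12 risers, all with a window, 2 (Isg15 and Ifitm3) held an ISRE core and 4 (Irf8, Irf1, Ifitm6 and Ifitm3) a GAS. Of the 5 fallers with a window, 2 (Stat2 and Stat4) held an ISRE core and 2 (Ifit2 and Ifi202b) a GAS. Of the 23 genes with a window that passed in neither direction, 11 held an ISRE core and 4 a GAS.

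Induction of the GFP line exposed cells to doxycycline and the medium without msx2. None of the 49 genes was called there, where 0.0308% of all tested genes were. None reached an unadjusted p under 0.05 and none was called by DESeq2. Log2 fold changes ran from -0.59 (Ifitm6, ± 0.29, unadjusted p = 0.0548) to 0.49 (Oasl1). Irf8 was at 0.152, 0.184 and 0.177 CPM before induction and at 0.189, 0.336 and 0.146 CPM after it, with overlap (0.39 ± 0.52, 95% interval -0.70 to 1.5). Ifi30 was at 15.7, 16.3 and 14.5 CPM and then at 18, 17.3 and 14.4 CPM (0.09 ± 0.11, interval -0.13 to 0.32). Ifit2 was at 20.9, 24.3 and 21.5 CPM and then at 22.8, 21.9 and 21.7 CPM (-0.01 ± 0.11, interval -0.24 to 0.22). The intervals of Ifi30 and Ifit2 exclude changes of the size seen in the msx2 line.

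**Figure D3:**
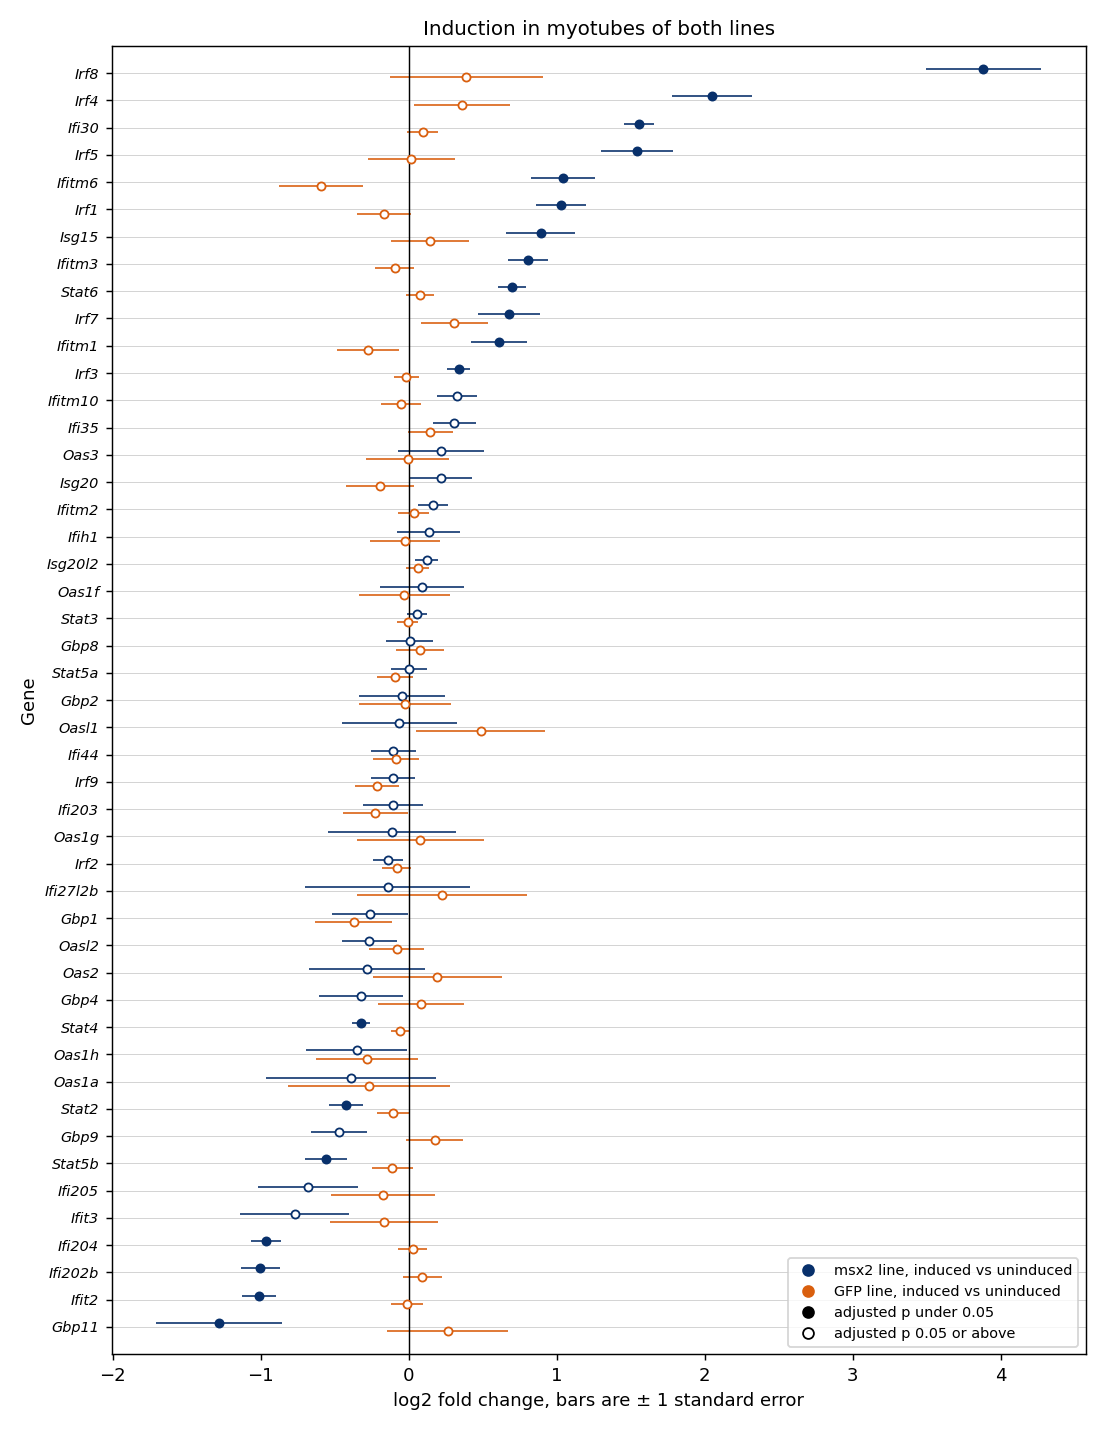
Log2 fold change of induced against uninduced myotubes for 47 of the 49 tested genes in the msx2 line (blue) and the GFP line (orange), with bars of 1 standard error and filled points where the adjusted p was under 0.05. In the msx2 line 12 genes are filled to the right and 7 to the left, and no GFP-line point is filled.

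The inductions were then set against each other in the interaction of line and induction. It was called for 14 of 49 genes (28.6%), 10 higher and 4 lower with msx2, where 17.9% of all tested genes were called, 9.15% higher and 8.78% lower. The difference was largest for Irf8 (3.49 ± 0.70 log2 units, adjusted p = 0.00212), followed by Irf4 (1.69 ± 0.43, adjusted p = 0.0125), Ifitm6 (1.64 ± 0.36) and Irf5 (1.52 ± 0.38, adjusted p = 0.0105). Ifi30 (1.46 ± 0.15, adjusted p = 7.22e-06), Irf1 (1.2 ± 0.25), Ifitm3 (0.90 ± 0.19) and Stat6 (0.62 ± 0.14) were also called. So were the falls of Ifi202b (-1.10 ± 0.19), Ifit2 (-1.0 ± 0.16) and Ifi204 (-0.99 ± 0.14, adjusted p = 0.000137). The call was lost for Irf4 without GFP-line uninduced replicate 1 (0.0509) and for Irf5 without GFP-line uninduced replicate 3 (0.0539). Ifitm1 (0.88 ± 0.28, adjusted p = 0.0418), Irf3 (0.35 ± 0.12, adjusted p = 0.0460) and Stat4 (-0.27 ± 0.09, adjusted p = 0.0439) each lost theirs under at least 10 of 21 alternatives. Isg15, Irf7, Stat2, Stat5b and Gbp11, called within the msx2 line, were not called here (adjusted p 0.0906 to 0.484). With the replicate block Stat5b (0.0316) and Gbp11 (0.0438) were.

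Induced myotubes of the lines were also compared directly. There 12 of 49 genes were higher and 6 lower in the msx2 line (36.7%, beside 35.3% of all tested genes, 17.6% higher and 17.8% lower). Among these 18, Irf8 (2.73 ± 0.35 log2 units), Ifitm6 (2.19 ± 0.25) and Irf5 (1.71 ± 0.26) were higher by the most, and Ifit2 (-1.24 ± 0.11) and Ifi204 (-0.80 ± 0.10) lower by the most. The induced msx2-line libraries enter this comparison and the msx2 induction alike, so no overlap between the 2 is read. Calls of Ifi202b (-0.39 ± 0.13), Ifitm2 (0.32 ± 0.10) and Isg15 (0.87 ± 0.24) were lost when certain induced libraries were left out (adjusted p up to 0.152). The replicate block added Irf7 (0.0251), Isg20 (0.0186), Ifih1 (0.0230) and Ifitm10 (0.0463).

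Uninduced myotubes of the lines, which already differed in Msx2, had none of the 49 genes called, beside 0.0616% of all tested genes (0.00616% higher and 0.0554% lower). An unadjusted p under 0.05 was reached by 8 genes. DESeq2 called 1, Ifi202b, which was at 46.8, 39.5 and 46.9 CPM in the msx2 line and 20.8, 28.5 and 31.5 CPM in the GFP line. Those groups did not overlap (0.71 ± 0.13 log2 units, adjusted p = 0.0587). It passed with the replicate block (0.0102) and with DESeq2 (0.000426). In induced myotubes the order was reversed, with 22.3, 22.3 and 21.9 CPM against 24.4, 29.4 and 33 CPM.

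Other genes of the pathway were counted from lists, whose counts stand beside the 16.2% of all tested genes that rose and the 16.3% that fell with msx2 induction. Of 10 tested interferon receptor and kinase genes, 4 rose with msx2 induction and 2 fell. Ifngr2, a chain of the interferon gamma receptor, rose by 0.63 ± 0.11 log2 units and the kinase gene Jak1 by 0.39 ± 0.06, while Jak2 (-0.47 ± 0.09) and Ifngr1, the other receptor chain (-0.26 ± 0.08), fell. Reads of the interferon genes themselves were nearly absent: Ifnb1 had 1 read over the 3 uninduced and 2 over the 3 induced msx2-line libraries, and Ifng had 9 and 8. Of 18 sensor genes 3 rose and 1 fell, the faller being Tlr4, the endotoxin receptor (-1.47 ± 0.16, adjusted p = 4.11e-06). Of 38 other interferon-stimulated genes 8 rose and 4 fell. Rsad2, an antiviral enzyme, rose by 2.94 ± 0.30 (adjusted p = 1.92e-06) and Irgm2, a GTPase, by 1.34 ± 0.21, while Ddx60, a helicase (-1.88 ± 0.15, adjusted p = 1.38e-07), and Tor3a (-0.74 ± 0.10) fell.

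Of 13 tested antigen processing genes 6 rose and none fell, led by Tapbp (0.72 ± 0.09) and Tap2 (0.89 ± 0.17), which load and import peptides for class I molecules. The median of this list was 0.41 log2 units, beside -0.01 for all tested genes. Of 16 feedback inhibitors 3 rose and 3 fell, shares near those of all tested genes. Socs1, the inhibitor of Jak kinases, went from 1.33 ± 0.44 to 4.86 ± 0.82 CPM (SD, n = 3 each), up by 1.85 ± 0.21 log2 units (adjusted p = 5.3e-06), and Socs6 fell by 0.55 ± 0.09. Of 13 receptors that signal through other Stat proteins 6 rose and 1 fell. The interleukin 6 receptor gene Il6ra went from 3.45 ± 0.98 to 21.5 ± 0.84 CPM, up by 2.61 ± 0.16 log2 units (adjusted p = 1.34e-08). No gene of these 6 lists was called in the GFP-line induction, where 0.0308% of all tested genes were. In the difference of inductions the calls were fewer than in the msx2 line: 2 higher and 1 lower for receptors and kinases, 1 and 1 for sensors, 5 and 3 for other interferon-stimulated genes, 4 and 0 for antigen processing, 2 and 1 for feedback inhibitors and 3 and 1 for the other receptors. Beside them stand 9.15% of all tested genes higher and 8.78% lower. Rsad2, Irgm2, Tapbp, Tap2, Socs1 and Il6ra were among those higher, and Ddx60, Tor3a, Tlr4, Jak2 and Socs6 among those lower.

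Several of the risers are genes of blood cells, so leukocyte markers are given beside them. Of 10 markers 8 were tested, and their summed level was 32.6 to 35.9 CPM in the msx2 line before induction and 36.4 to 37.9 CPM after it. Csf1r, the macrophage growth factor receptor, rose from 0.72 ± 0.19 to 6.03 ± 0.46 CPM (3.02 ± 0.25 log2 units), and Laptm5 rose by 1.91 ± 0.40. Itgam fell by 0.34 ± 0.12. Ptprc, the pan-leukocyte marker, was at 1.56 ± 0.17 and 1.41 ± 0.24 CPM and Emr1, a macrophage marker, at 6.78 ± 0.64 and 5.97 ± 0.40 CPM, neither called. Cd3e, a T cell marker, stayed at or below 9 reads in any of these libraries. In the difference of inductions Csf1r alone of the 8 tested markers was called, so the changes of Laptm5 and Itgam were called within the msx2 line only. The part of such cells in the rises was not tested.

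Myotubes before induction were also compared with myoblasts. In both lines Irf5, Irf1, Stat4, Stat6, Ifi30, Ifitm1, Ifitm2 and Ifitm3 were lower in myotubes than in myoblasts, while Irf4, Irf7, Isg15, Stat3, Stat5a, Stat5b, Ifit2, Ifit3, Ifitm10, Gbp1, Gbp9 and 5 Oas genes were higher. In the msx2 line 25 of 49 were higher and 15 lower (81.6%, beside 79.8% of all tested genes, 40.8% higher and 39% lower). In the GFP line the numbers were 22 and 16 (77.6%, beside 77.7% of all tested genes, 39.8% higher and 37.9% lower). Oas1f and Oasl1 were among those lower in the GFP line and were not called in the msx2 line. Called higher in both lines were 21 genes (42.9%, beside 35.1% of all tested genes) and lower in both 11 (22.4%, beside 34.3%). Irf9 was the 1 gene called in opposite directions (2.04%, beside 0.591% of all tested genes). Upper-quartile scaling moved the median log2 fold change of all genes from 0.08 to 0.29 in the msx2 line and from 0.06 to 0.20 in the GFP line, and the counts became 28 and 9, and 23 and 14. Serum, isolation on the mesh and AraC also differ between these groups and cannot be told apart from differentiation, and dividing cells differ too: cycling markers summed to 1937 to 2346 CPM in myoblasts and 81 to 183 CPM in all myotubes.

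Irf5 fell furthest. It was at 15.5 and 11.8 CPM in myoblasts and 0.998, 1.74 and 1.40 CPM in uninduced myotubes of the msx2 line (-3.28 ± 0.24 log2 units, adjusted p = 5.13e-09). In the GFP line it was at 9.52 and 10.6 CPM and at 0.708, 1.22 and 1.62 CPM (-3.02 ± 0.25, adjusted p = 2.21e-08). Myoblasts and myotubes were far apart in both lines. Stat6 fell from 63.4 and 51.5 CPM to 21.2, 25.5 and 21.9 CPM in the msx2 line (-1.33 ± 0.10) and from 53.9 and 50.7 CPM to 19.8, 23.8 and 23 CPM in the GFP line (-1.23 ± 0.10). Stat4 fell from 262 and 273 CPM to 131, 145 and 141 CPM in the msx2 line (-0.95 ± 0.07), and by 0.81 ± 0.07 in the GFP line. Ifitm2 fell from 157 and 159 CPM to 57.9, 80.2 and 57.4 CPM in the msx2 line (-1.27 ± 0.11), and by 1.21 ± 0.11 in the GFP line. Irf1 fell by 1.53 ± 0.18 and 1.10 ± 0.19 log2 units, and Isg20l2 by 1.40 ± 0.08 and 1.31 ± 0.08, in the msx2 and GFP lines in that order.

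Among the risers, Ifitm10 rose from 2.76 and 2.71 CPM to 29.4, 23.6 and 25.4 CPM in the msx2 line (3.25 ± 0.20 log2 units, adjusted p = 6.2e-10) and from 2.38 and 2.14 CPM to 28.1, 29.9 and 24.3 CPM in the GFP line (3.6 ± 0.21, adjusted p = 3.56e-10). Isg15 rose from 0.267 and 0.329 CPM to 1.45, 1.56 and 1.31 CPM in the msx2 line (2.24 ± 0.39), and by 2.35 ± 0.42 in the GFP line. Gbp9 rose from 0.446 and 0.576 CPM to 3.59, 4.30 and 3.14 CPM in the msx2 line (2.83 ± 0.29), and by 1.70 ± 0.27 in the GFP line. Each of these sets of myotube libraries lay above all myoblast libraries of its line. Stat3 rose from 148 and 135 CPM to 190, 188 and 190 CPM in the msx2 line (0.42 ± 0.08) and from 97.9 and 95.5 CPM to 202, 185 and 187 CPM in the GFP line (0.98 ± 0.08).

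Some genes had no or few reads in myoblasts. With no read in msx2-line myoblasts, Gbp11 was at least 12.8-fold higher in myotubes, Ifi27l2b at least 9.51-fold and Irf4 at least 5.63-fold, taking 3 counts summed over a group as the floor. In the GFP line 2 myoblast reads of Irf4 gave a ratio of 8.85 (95% counting interval 2.26 to 76.1) and 2 of Gbp11 a ratio of 12.1 (3.15 to 103). In the msx2 line 1 read of Oas1h gave a ratio of 16.3 (2.70 to 667). These intervals cover counting error only. Calls that some alternative ended were those of Gbp4, Ifi205, Ifi44, Ifitm3, Irf2, Irf3, Irf9, Oas1a, Oas1g, Oas2 and Stat2 in the msx2 line (adjusted p up to 0.789) and of Ifi203, Ifi27l2b, Ifi44, Ifit3, Irf9, Oas1a, Oas1f, Oas2 and Oasl1 in the GFP line (up to 0.251). Among these, leaving out msx2-line myoblast replicate 1 moved Gbp4 to an adjusted p of 0.475, and leaving out myoblast replicate 2 moved Ifi205 (0.167), Oas1a (0.225), Oas1g (0.262), Oas2 (0.275) and Irf3 (0.131).

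**Figure D4:**
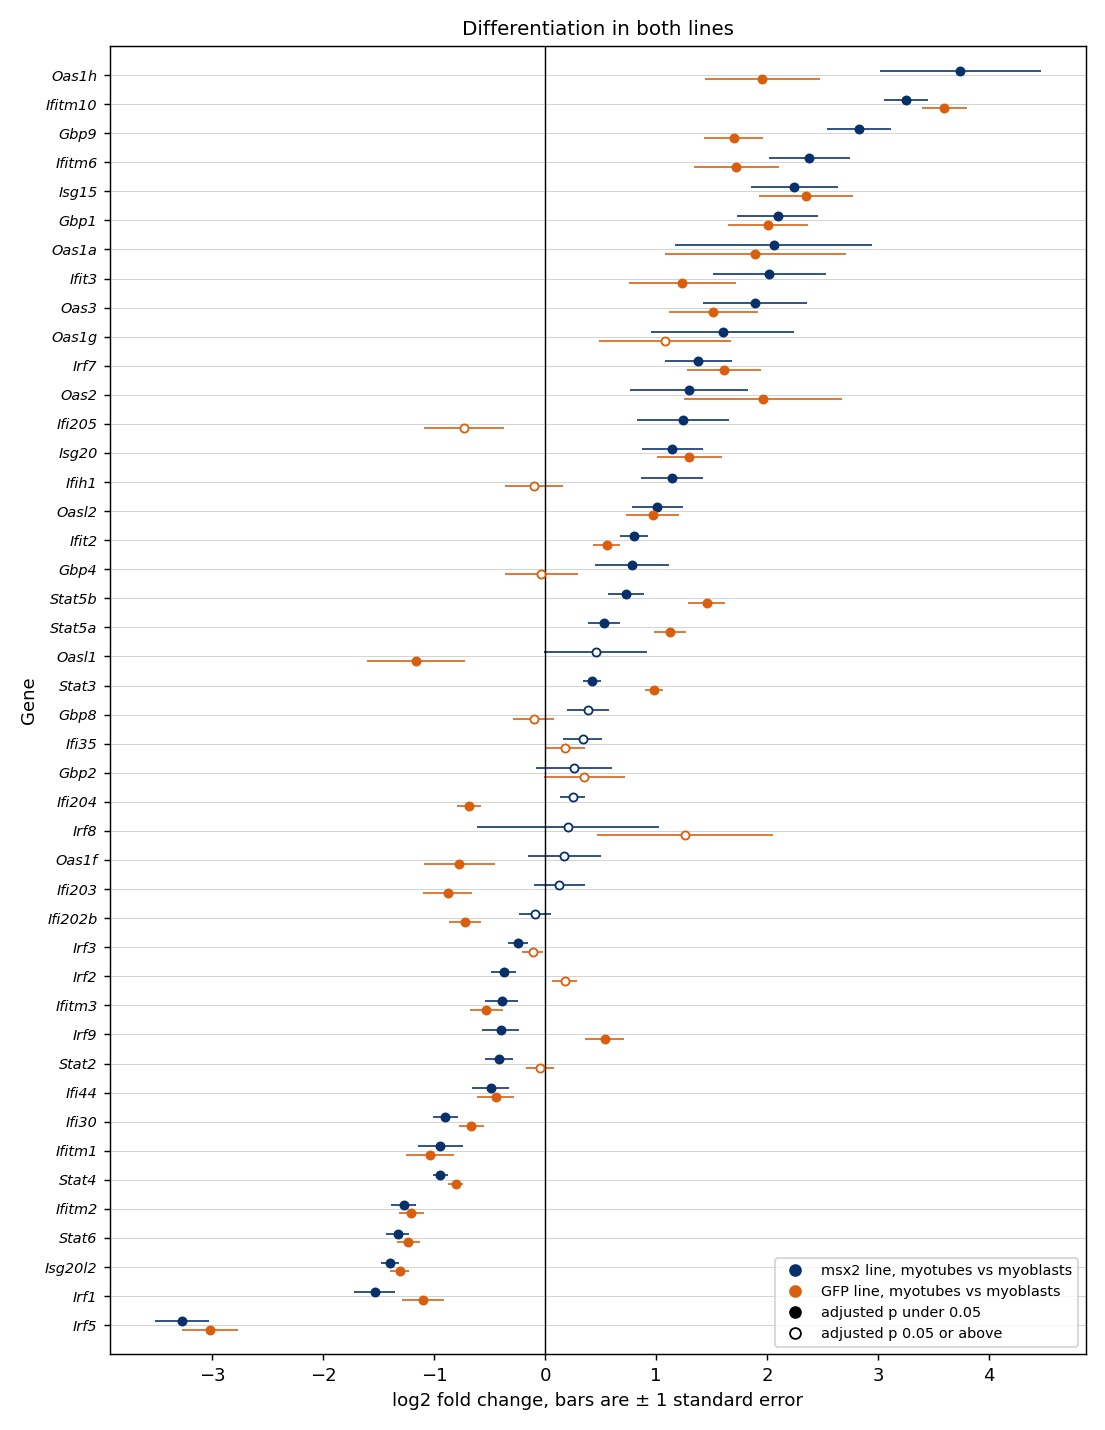
Log2 fold change of uninduced myotubes against myoblasts in the msx2 line (blue) and the GFP line (orange), with bars of 1 standard error and filled points where the adjusted p was under 0.05. The plot holds 44 genes, without Gbp11, Ifi27l2b and Irf4, which had no read in msx2-line myoblasts, and Irf9 is the gene filled on opposite sides of 0.

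The uninduced msx2-line myotubes enter both the induction and the differentiation, so levels of 3 genes are set side by side here and no relation is drawn. Irf5 was at 13.7 ± 2.59 CPM in msx2-line myoblasts (SD, n = 2), at 1.38 ± 0.37 CPM in myotubes before induction (n = 3) and at 4.10 ± 0.66 CPM after it (n = 3). Ifi30 was at 29.1 ± 0.30, 15.5 ± 2.12 and 46.0 ± 2.58 CPM in the same order. Ifit2 was at 10.9 ± 1.56, 19 ± 0.96 and 9.38 ± 1.61 CPM. Induced myotubes thus lay between myoblasts and uninduced myotubes for Irf5, above both for Ifi30 and near myoblasts for Ifit2. The 3 genes are examples. Stat4 went otherwise, with every induced library below all myoblast and uninduced myotube libraries of the line.

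The differentiations of the lines differed for 5 of 49 genes (10.2%, beside 8.28% of all tested genes, 4.01% higher and 4.27% lower). Ifi204 was higher by 0.93 ± 0.16 log2 units in the msx2-line differentiation (adjusted p = 0.00185) and Ifi205 by 1.97 ± 0.55. Irf9 (-0.94 ± 0.24), Stat3 (-0.56 ± 0.11) and Irf2 (-0.55 ± 0.16) were lower. Only the Ifi204 call held under every alternative. The others were lost when single libraries were left out, myoblasts among them: without msx2-line myoblast replicate 1 the adjusted p was 0.230 for Irf2, 0.137 for Irf9 and 0.0632 for Stat3, and without replicate 2 it was 0.138 for Ifi205.

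Before differentiation the lines differed in 6 of 49 genes (12.2%, beside 16.3% of all tested genes, 9.09% higher and 7.24% lower). Irf9 was at 7.31 and 6.25 CPM in msx2-line and 4.01 and 4.29 CPM in GFP-line myoblasts (0.71 ± 0.19 log2 units, adjusted p = 0.0180). Stat3 (0.55 ± 0.09) and Irf2 (0.40 ± 0.12) were higher in the msx2 line too. Ifi204 was lower, at 32.4 and 29.3 CPM against 48.4 and 54.7 CPM (-0.74 ± 0.12, adjusted p = 0.000739), as were Ifit2 (-0.48 ± 0.14) and Ifi205 (-1.62 ± 0.44). Irf9, Irf2, Ifit2 and Ifi205 lost their calls when 1 myoblast library was left out, either GFP-line library being enough. Without GFP-line myoblast replicate 1 the adjusted p was 0.115 for Irf9, 0.193 for Irf2, 0.179 for Ifit2 and 0.106 for Ifi205. Irf9, Stat3, Irf2, Ifi204 and Ifi205 were also called in the difference of differentiations, in the opposite direction. The myoblast libraries enter both comparisons, so these are not separate results.

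Levels of different genes were compared per kilobase of exon. Ifitm3 and Ifitm2 led in every group, at 244 and 241 CPM per kilobase in msx2-line myoblasts, 186 and 99.5 in myotubes of that line before induction and 324 and 112 after it. Stat4 came next in every group other than induced msx2-line myotubes, where Ifi30 (46.9 CPM per kilobase) stood above Stat4 (28.7).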

How the data were processed

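RNA from 16 libraries in 6 groups was analysed. The deposited values are raw counts of reads per gene, as whole numbers. Per the submitters' processing notes, the build was mm9 and the tools included SAMtools 0.1.19, TopHat2 2.0.11 and edgeR 3.6.8. How reads were counted, with which annotation and strand setting, is not given in the sources used here. The 67 entries lacking a symbol held at most 0.0878% of a library's counts and were left out.

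All libraries entered 1 edgeR 4.0.16 fit (R 4.3.3, limma 3.58.1) with 1 coefficient per group, filterByExpr with a minimum count of 10, TMM scaling and robust, two-sided quasi-likelihood F-tests. For each of 9 comparisons the Benjamini-Hochberg adjustment covered all 16245 genes tested, with a threshold of 0.05. CPM use TMM-adjusted library sizes. Fold changes are edgeR's shrunken ones, and each SE comes from dividing the unshrunken one by the root of its F. The fit was tested on simulated data.

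Members, gene lists and tests were chosen with earlier results of these data known. Any tested member may be named, but 2 members and 1 marker gene are counted and not otherwise reported here. Values per library are given for up to 8 called members each way per comparison by adjusted p, and for all called Irf and Stat genes of the msx2 induction. Of each list up to 2 genes each way are named.

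Same-numbered uninduced and induced myotube libraries deviated together from their group means. Correlations were 0.394, 0.508 and 0.207 in the msx2 line and 0.359, 0.414 and 0.453 in the GFP line. The replicate numbers were therefore taken to pair them in the replicate block, while the main fit held no replicate term. Across the lines, same-numbered myotube libraries correlated at 0.177, 0.274 and 0.288 uninduced and at 0.0912, 0.247 and 0.175 induced. Those with different numbers lay at -0.203 to -0.0146 and at -0.176 to 0.0432. The labels name no shared batch.

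The alternatives tried were DESeq2 1.42.0, scaling by RLE or by upper quartiles, testing every gene with a read or those with 5 CPM in 3 libraries, the replicate block, a fit of the compared groups alone and leaving out each library. A GC offset with the block, and leaving out both msx2-line libraries numbered 2, were added after seeing the data. The GFP-line myoblast libraries differed least from each other (chi-square per degree of freedom 1.95, against 10.5 to 31.3 in other pairs) and were kept as 2. RefSeq on GRCm38.p6 supplied promoters, and the GENCODE mouse annotation supplied GC content and exon lengths. For lengths and GC content 57 members matched by symbol and 1, Gbp1, by an older symbol.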

Additional observations from a re-analysis of the deposited data

Results flagged for a closer look

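The response of a gene to induction differed between the lines by the interaction test for 14 genes. In log2 units, msx2 line minus GFP line, the differences were 3.49 for Irf8, 1.69 for Irf4, 1.64 for Ifitm6, 1.52 for Irf5, 1.46 for Ifi30, 1.2 for Irf1, 0.90 for Ifitm3, 0.88 for Ifitm1, 0.62 for Stat6 and 0.35 for Irf3. They were -1.10 for Ifi202b, -1.0 for Ifit2, -0.99 for Ifi204 and -0.27 for Stat4. The response to differentiation differed for Ifi205 (1.97), Ifi204 (0.93), Irf9 (-0.94), Stat3 (-0.56) and Irf2 (-0.55). Each of these genes was also called between the myoblasts of the lines, whose libraries enter both comparisons.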

How the results depend on the processing

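Called genes were followed through every alternative that tested them. In the msx2 induction 14 of 19 kept their call throughout, and 9 of 14 did in the difference of inductions. In the msx2-line and GFP-line differentiation 29 of 40 and 29 of 38 did, and 1 of 5 in the difference of differentiations. Between induced lines 15 of 18 did, and 2 of 6 between myoblasts. A gene that an alternative's filter removed was not counted as lost. For the msx2 induction the filter of 5 CPM in 3 libraries removed Irf8, Irf4, Ifitm6 and Isg15 among others. Leaving out 1 library gave 16 to 20 called genes in the msx2 induction, 0 in the GFP induction, 10 to 14 in the difference of inductions, 33 to 39 and 32 to 35 in the differentiations, 1 to 7 in the difference of differentiations, 16 to 18, 0 to 1 and 2 to 5 between lines in induced myotubes, uninduced myotubes and myoblasts. A filter of 5 CPM in 3 libraries left 24 members to test. With it the msx2-line differentiation had 17 called and the GFP-line differentiation 19, beside 83.2% and 82.2% of all genes tested there. With only the compared groups the difference of differentiations had 3 of 48 tested members called, beside 6.9% of all genes tested there. The myoblast comparison had 16 of 36, beside 36.2% of all genes tested there and 16.3% in the main fit. The cause was not tested. DESeq2, and the GC offset with the replicate block, each called 1 gene, Ifi202b, between uninduced lines. Beside it stood 0.948% and 1.79% of all tested genes.

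With the replicate block, the msx2 induction had 21 called genes, the difference of inductions 16, the comparison of induced lines 22 and that of uninduced lines 1. Over all tested genes the shares called with the block were 38.3%, 23.5%, 40.8% and 1.06% in that order. Without it they were 32.5%, 17.9%, 35.3% and 0.0616%. The numbers do not pair myoblasts with myotubes (correlations -0.0103 to 0.0113) or the lines' myoblasts. There the block moved the difference of differentiations to 11 (beside 13.9% of all tested genes) and the myoblast comparison to 10 (beside 23.8%). The block lost 1 call, Oas1a in the GFP-line differentiation (adjusted p = 0.0517). Stat5a in the msx2 induction, at 0.00 log2 units, became -0.16 with the GC offset and replicate block (adjusted p = 0.0292). Precision is limited by 2 libraries per myoblast group and by low reads for most Oas genes, and no detection limit was computed.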
